A study of Mus musculus with 2 samples.

Results

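The genes described here are 10 members of the type 2 immune axis: the effector cytokines Il4, Il5 and Il13, the alarmins Il25, Il33 and Tslp, and the receptor chains Il1rl1, Il17rb, Il4ra and Il13ra1. They were taken by symbol from the gene tables of both libraries, and all 10 were found among 33083 genes. One single-cell library came from the colon of a transgenic Alzheimer's disease (AD) mouse model, named APP/PS1-21 in the series' design text, and 1 from the colon of wild-type (WT) mice. Both were 10x libraries of colon dissociated with trypsin and DNase I, and the AD arm carried no further treatment. The labels give no age, sex or number of animals. As background, this transgene is known to be driven by a neuronal Thy1 promoter, so the gut cells are not its intended site of expression. The design text names colonic epithelium, but both libraries also held lymphocytes, plasma cells, fibroblasts, endothelium and macrophages.

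Type 2 immunity is the arm of the immune system that answers worms, allergens and barrier damage. Epithelial and stromal cells release the alarmins IL-33, TSLP and IL-25, the last a known product of tuft cells in the gut. Group 2 innate lymphoid cells and type 2 helper T cells carry the receptors for them, among which Il1rl1 encodes ST2, the IL-33 receptor, and Il17rb a chain of the IL-25 receptor. These lymphocytes then release IL-4, IL-5 and IL-13. IL-13 acts through a receptor built from IL-4Rα (Il4ra) and IL-13Rα1 (Il13ra1), and in gut epithelium it is known to favour goblet and tuft cells.

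Il5, Il13 and Il1rl1 were the members whose levels in the AD library reached 2 times those of the WT library, both over all barcodes and in lymphocytes. Their upstream windows are shown because all carry a match to the GATA motif. GATA3 is the factor that defines type 2 lymphocytes. The windows are the 250 bases before an annotated RefSeq start, on build GRCm38.p6, written from 5′ to 3′ on the gene's strand. Capitals mark GATA with A or T before it and A or G after it, on either strand.
Il13, chr11:53634703-53634952, minus strand: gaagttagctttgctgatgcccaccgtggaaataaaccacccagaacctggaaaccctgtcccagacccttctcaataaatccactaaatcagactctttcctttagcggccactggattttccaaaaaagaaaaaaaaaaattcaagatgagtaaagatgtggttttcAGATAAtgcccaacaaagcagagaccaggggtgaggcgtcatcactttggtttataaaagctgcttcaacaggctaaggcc
Il5, chr11:53720544-53720793, plus strand: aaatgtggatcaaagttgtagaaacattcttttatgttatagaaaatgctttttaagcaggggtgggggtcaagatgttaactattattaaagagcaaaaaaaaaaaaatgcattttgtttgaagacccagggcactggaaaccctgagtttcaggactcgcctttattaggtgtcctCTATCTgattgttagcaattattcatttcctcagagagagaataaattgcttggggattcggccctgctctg
Il1rl1, first start, chr1:40429320-40429569, plus strand: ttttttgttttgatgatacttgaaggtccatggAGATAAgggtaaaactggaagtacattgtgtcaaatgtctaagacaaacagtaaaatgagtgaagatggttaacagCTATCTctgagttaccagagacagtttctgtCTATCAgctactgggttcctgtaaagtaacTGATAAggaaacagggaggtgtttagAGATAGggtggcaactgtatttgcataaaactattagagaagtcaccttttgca
Il1rl1, second start, chr1:40439379-40439628, plus strand: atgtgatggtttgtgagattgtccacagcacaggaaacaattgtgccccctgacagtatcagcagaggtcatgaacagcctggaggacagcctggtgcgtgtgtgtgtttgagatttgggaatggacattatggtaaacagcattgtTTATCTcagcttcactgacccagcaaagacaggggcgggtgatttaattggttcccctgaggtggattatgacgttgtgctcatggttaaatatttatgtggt

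The motif was present in 26.5% of all 32851 RefSeq windows of this length, so 1 match is common. The first Il1rl1 window held 5 matches, which only 14 windows (0.0426%) reached or passed. The second Il1rl1 window, Il5 and Il13 held 1 match each. Both Il1rl1 windows lie inside the annotated gene (chr1:40404864-40465418). First and second thus give the order of the starts used, and neither window lies before the gene's 5′ end. Il4 and Il33 have 2 annotated starts each, and 1 match lay before the second Il4 start. No window of Il33, Il4ra, Il13ra1 or Il17rb held one, and 8 of the 10 members had a window in the table. On chromosome 11, Il4, Il13 and Il5 lie in that order at 53612460-53618665, 53631323-53634702 and 53720794-53725103. The STAT motif, TTC and GAA with 4 bases of any kind between them, was found in 5.85% of windows and was present before the first Il4 start and the first Il33 start. TGANTCA, the AP-1 motif (6.75% of windows), was found before Il17rb alone among the members with a window. GGAAA, the core of the NFAT motif (55.6%), was found 5 times before the first Il4 start, 4 times before Il13 and 2 times before Il5. It was also found 1 time each before the first Il33 start, both Il1rl1 starts and Il4ra. Each motif was searched on both strands. A match describes the letters of a window and shows no binding.

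The libraries held 6675 AD and 4146 WT barcodes with 38731915 and 26898149 UMIs (unique molecular identifiers, tags counted once per captured molecule). Mitochondrial UMIs exceeded 25% in 29.2% of AD and 60.4% of WT barcodes. With that limit, and after removal of called doublets, 4687 AD and 1546 WT cells were kept, with median depths of 3720 and 3714.5 UMIs. Among kept cells, 499 AD and 243 WT cells were lymphocyte-like, 858 and 263 stromal-like, and 1552 and 558 epithelial-like. Between all barcodes of the libraries 7 cell barcodes were shared, and 2 among kept cells. With 1 library per genotype, no difference could be tested, and every difference given is one between these 2 libraries. Levels are counts per 1000000 UMIs of the same cells (CPM), intervals are exact 95% intervals, and they cover counting error only. A member counts as higher or lower when the ratio reaches 2-fold among genes with at least 20 UMIs in both libraries together.

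Over all barcodes, Il5, Il13 and Il1rl1 were higher in the AD library. Il13 had 49 UMIs in AD and 9 in WT, a ratio of 3.78 (1.84 to 8.75). Il1rl1 had 181 UMIs in AD and 38 in WT, a ratio of 3.31 (2.32 to 4.83). Il5 had 30 and 10 UMIs, a ratio of 2.08 whose interval (0.991 to 4.78) includes 1. Thus 3 of 8 members with enough UMIs were higher, against 8.22% of 18681 genes, and 0 were lower, against 4.16%. The median log2 ratio was 0.76 over these 8 members and 0.14 over all genes tested. Il5 lost its call with 1 count added, with the median gene ratio set to 0, and with CPM that left out mitochondrial, ribosomal protein, immunoglobulin and haemoglobin genes. With the median gene set to 0, 6.21% of genes were higher and 5.48% lower. Il25 (7 UMIs in AD, 11 in WT) and Il17rb (6 in AD, 12 in WT) were below the minimum.

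Among the other members, Il33 had 393 UMIs in AD and 159 in WT (ratio 1.72, 1.42 to 2.08). Il13ra1 had 2845 and 1216 (1.62, 1.52 to 1.74), and Tslp 71 and 29 (1.70, 1.09 to 2.72). Il4 had 142 UMIs in AD and 79 in WT (1.25, 0.942 to 1.67), and Il4ra 741 and 544 (0.946, 0.846 to 1.06). In bulk sums like these, more cells of a type and more RNA per cell cannot be told apart.

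In kept cells the ratios of these 3 genes were smaller, and of 8 members only Il13 was 2-fold higher, at 1.53 CPM in AD and 0.728 CPM in WT (ratio 2.11, 1.02 to 4.88). The background was 4.64% of 17581 genes higher and 5.79% lower. The median log2 ratio was 0.26 for the members and -0.15 for all genes. Il1rl1 lay just under the threshold at 5.51 and 2.83 CPM (ratio 1.95, 1.35 to 2.88). With the median gene set to 0, these shares were 5.87% and 4.11%, and Il1rl1 was called as well. With at most 10% mitochondrial UMIs, Il13 stood at 35 AD and 9 WT UMIs and its log2 ratio was -0.03, so this whole-library difference was lost. Under that limit Il4, at -1.13, was the 1 member called, lower in AD, against 10.4% of genes, and the median of all genes was -0.30. Il5 stood at -0.41 there (0.47 in kept cells), Il33 at -0.45 (0.15) and Tslp at -0.57 (0.19).

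**Figure D1:**
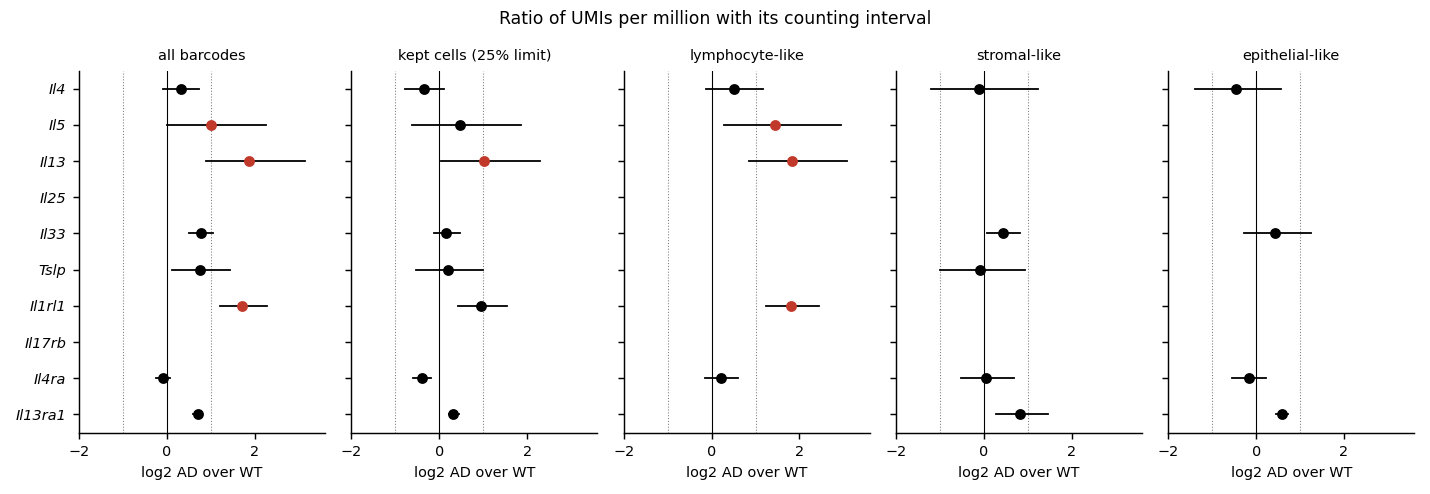
Log2 ratio of AD over WT CPM for members with at least 20 UMIs, in all barcodes, in kept cells and in 3 classes of kept cells. Bars are exact 95% counting intervals, dotted lines mark 2-fold, and red points reach it: Il5, Il13 and Il1rl1 in all barcodes and in lymphocyte-like cells, and Il13 alone in kept cells.

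Il5 and Il13 were read almost entirely in lymphocytes, while lymphocyte-like cells held 48.5% of Il4 UMIs in AD and 47.7% in WT. Of kept-cell UMIs, lymphocyte-like cells held 48 of 49 Il13 UMIs in AD and 9 of 9 in WT. They held 29 of 30 Il5 UMIs in AD and 7 of 8 in WT. Stromal-like and B-like cells had 0 UMIs of either gene, which in B-like cells allows a share of cells with a UMI of up to 0.632% of 475 AD and 1.31% of 229 WT cells (3 counts). This limits detection and not expression.

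Il13, which drives mucus and smooth muscle responses, stood at 40.8 CPM (30.1 to 54.1) in AD and 11.1 CPM (5.07 to 21.1) in WT lymphocyte-like cells. It was found in 14 of 499 AD and 3 of 243 WT cells. The 14 AD cells held 19, 9, 3, 3, 2, 2, 2, 2 and 6 times 1 UMI, and the 3 WT cells held 6, 2 and 1. The highest AD cells exceeded every WT cell, but most positive cells of both libraries held few UMIs. The ratio was 3.68 (1.79 to 8.53).

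Il5, the growth factor of eosinophils, stood at 24.7 CPM (16.5 to 35.4) in AD and 8.63 CPM (3.47 to 17.8) in WT. It was found in 17 AD cells with 1 to 5 UMIs and in 2 WT cells with 6 and 1 UMIs. The highest single value was thus in WT, and 6 of the 7 WT UMIs came from that cell. The ratio was 2.86 (1.22 to 7.73). Without the highest cell of each library the log2 ratio moved to 3.47 against 1.44 with all cells.

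Il4, the cytokine of B cell class switching, had a smaller difference, with 54.4 CPM (41.9 to 69.5) in AD and 38.2 CPM (26 to 54.2) in WT (ratio 1.42, 0.914 to 2.26). One AD cell held 27 of 64 UMIs and 1 WT cell 21 of 31. Without these cells its log2 ratio was 1.29 against 0.50, which is past 2-fold.

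Il1rl1 had the most UMIs of the 3 higher members, 148 in AD and 29 in WT lymphocyte-like cells. Its level was 126 CPM (106 to 148) in AD and 35.8 CPM (23.9 to 51.3) in WT (ratio 3.52, 2.35 to 5.44). It was detected in 56 of 499 AD cells (11.2%) and 7 of 243 WT cells (2.88%), while B-like cells held 1 positive cell of 475 in AD and 0 of 229 in WT. Median depths were 2102 and 3163 UMIs in lymphocyte-like cells, and 1973 and 2448 in B-like cells. After thinning every cell to 1000 UMIs, which dropped 74 AD and 17 WT cells, the shares were 8% (5.6 to 11) in AD and 1.33% (0.275 to 3.83) in WT. Il13 was found in 1.88% of thinned AD and 0.442% of thinned WT cells, and Il5 in 2.35% and 0.442%, with overlapping intervals for both.

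Together, 3 of the 5 members tested in lymphocyte-like cells were higher, against 7.91% of 7973 genes, and 0 were lower, against 3.46%. The median log2 ratio was 1.44 over the 5 members and 0.03 over all genes. With no mitochondrial limit the same 3 of 5 were higher, against 7.64%, and 0 were lower, against 3.20%. Il4ra, the shared receptor chain, was at 134 CPM (114 to 157) in AD and 116 CPM (93.6 to 142) in WT and was found in 21.4% and 23.5% of cells. Other classes' markers moved the same way in these cells. The summed CPM of 12 epithelial markers was 798 in AD and 431 in WT (11 of 12 detected in each), that of 12 fibroblast markers 278 and 55.5, and that of 10 B cell markers 100 and 24.7. Their part in the Il1rl1 difference was not tested. Il1rl1 in stromal-like cells was at 2.51 CPM in AD and 0.872 CPM in WT, and 0.277 and 0.117 CPM in epithelial-like cells.

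**Figure D2:**
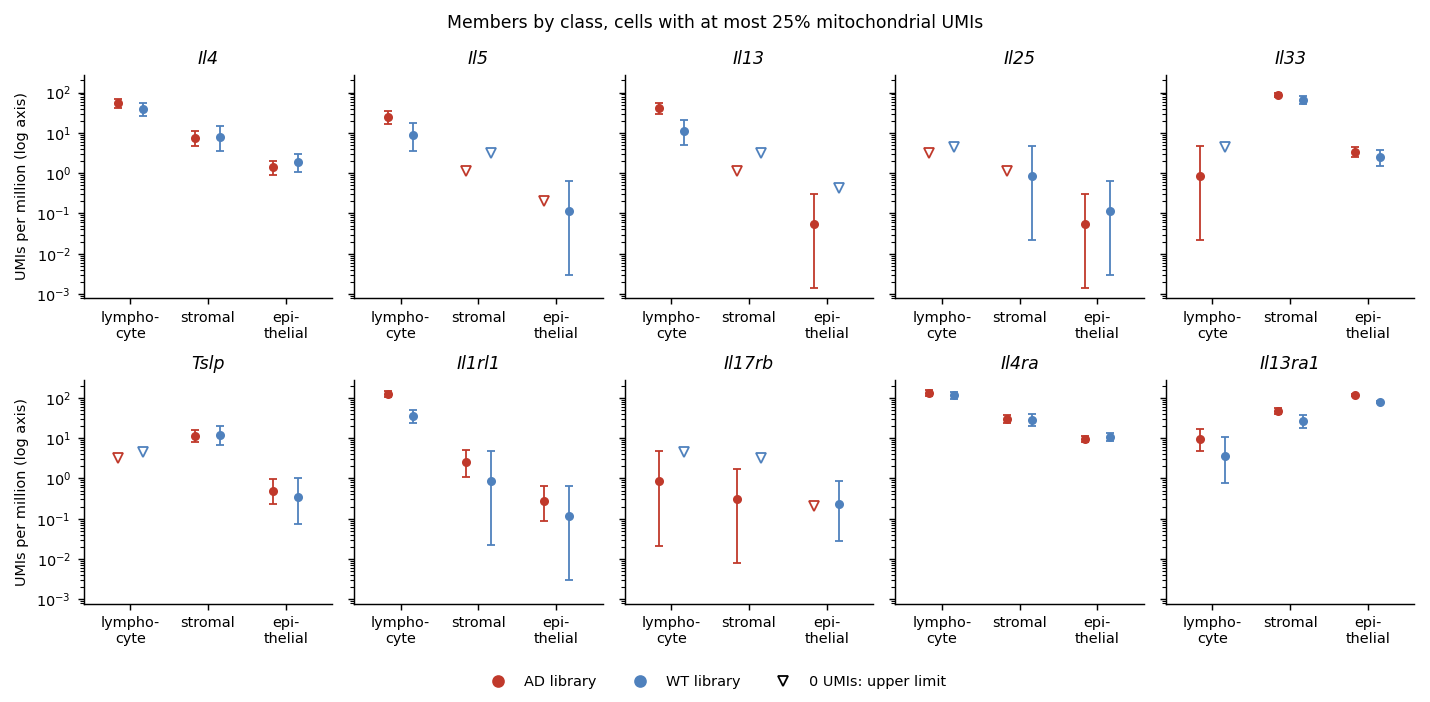
CPM (log axis) of the 10 members in lymphocyte-like, stromal-like and epithelial-like kept cells, AD left of WT, with exact 95% Poisson intervals and the upper limit where a class had 0 UMIs. Il5, Il13 and Il1rl1 sit highest in lymphocyte-like cells, Il33 and Tslp in stromal-like cells, Il4ra in lymphocyte-like cells and Il13ra1 in epithelial-like cells.

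Lymphocyte-like cells fell into 3 clusters, made without using any member gene. Cluster 7 was led by Ccl5, Klrd1, Cd8a and Nkg7, genes of cytotoxic and natural killer cells. Cluster 8 was led by Tnfrsf4, Il23r, Foxp3 and Icos, genes of activated and regulatory T cells. Cluster 15 was led by Calca, Il13, Il17a and Il17f, with Il5 and Il4 also among its leading 10 genes although none of these 3 members had been used to form it.

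Cluster 15 was the site of the effector cytokines, with 57 of 64 Il4, 27 of 29 Il5 and 48 of 48 Il13 UMIs of AD lymphocyte-like cells and all 31, 7 and 9 of those of WT. It held 54 AD and 6 WT cells, whose median depths differed (2286.5 and 5890.5 UMIs). Within it, Il13 stood at 328 CPM (242 to 434) in AD and 216 CPM (98.9 to 411) in WT. Il5 stood at 184 CPM (121 to 268) and 168 CPM (67.6 to 347). Il4 was at 389 CPM (295 to 504) in AD and 745 CPM (506 to 1060) in WT, a ratio of 0.522 (0.331 to 0.837). Il1rl1 was at 184 CPM (121 to 268) in AD and 361 CPM (202 to 595) in WT. Single cells held 27 of 57 Il4 UMIs in AD and 21 of 31 in WT. For Il1rl1, single cells held 13 of 27 UMIs in AD and 11 of 15 in WT. The intervals do not cover such spread between cells. So 0 of 4 members tested in cluster 15 were 2-fold higher or lower, against 13.2% and 11.6% of its 1609 genes. The higher Il5 and Il13 sums of AD lymphocyte-like cells went with more cells of this cluster in the AD library.

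The cells of cluster 15 carried the transcription factor genes Gata3 (44 of 54 AD and 6 of 6 WT cells) and Rora (47 of 54 and 6 of 6), which innate and helper type 2 cells share. Cd3e, a chain of the T cell receptor complex, was found in 6 of 54 AD and 0 of 6 WT cells. Il17a, a type 17 cytokine, was found in 26 of 54 AD and 1 of 6 WT cells, and Calca, which encodes the neuropeptide CGRP, in 21 of 54 and 3 of 6. Among AD cells of the cluster, 14 of 14 Il13-positive and 15 of 15 Il5-positive cells had Gata3. Il17a was found in 9 of those 14 and 12 of those 15 cells. Of 15 Il4-positive AD cells, 13 had Gata3 and 5 had Il17a. Gata3 was found in 75% of Il13-negative, 74.4% of Il5-negative and 79.5% of Il4-negative AD cells of the cluster. For Il17a these shares were 42.5%, 35.9% and 53.8%, so Il4-positive cells had Il17a less often than Il4-negative ones. Il5 and Il13 were found together in 8 cells, Il4 and Il13 in 6, and Il4 and Il5 in 4. In WT, 3 of the 6 cells had both Il13 and Il1rl1.

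Mast cells also make type 2 cytokines and carry ST2, so their markers were counted. Of 5 markers (Mcpt1, Mcpt2, Cpa3, Fcer1a and Ms4a2), AD lymphocyte-like cells held 849 UMIs, of which 841 lay in 1 cell of cluster 7, and WT cells held 1 UMI. That AD cell had 3 Il1rl1 UMIs and 0 of Il4, Il5 and Il13. The 34 AD and 6 WT lymphocyte-like cells with any of the 3 cytokines held 0 mast marker UMIs. Without the single mast marker cell, Il1rl1 had 145 UMIs in AD and 29 in WT and a log2 ratio of 1.77.

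**Figure D3:**
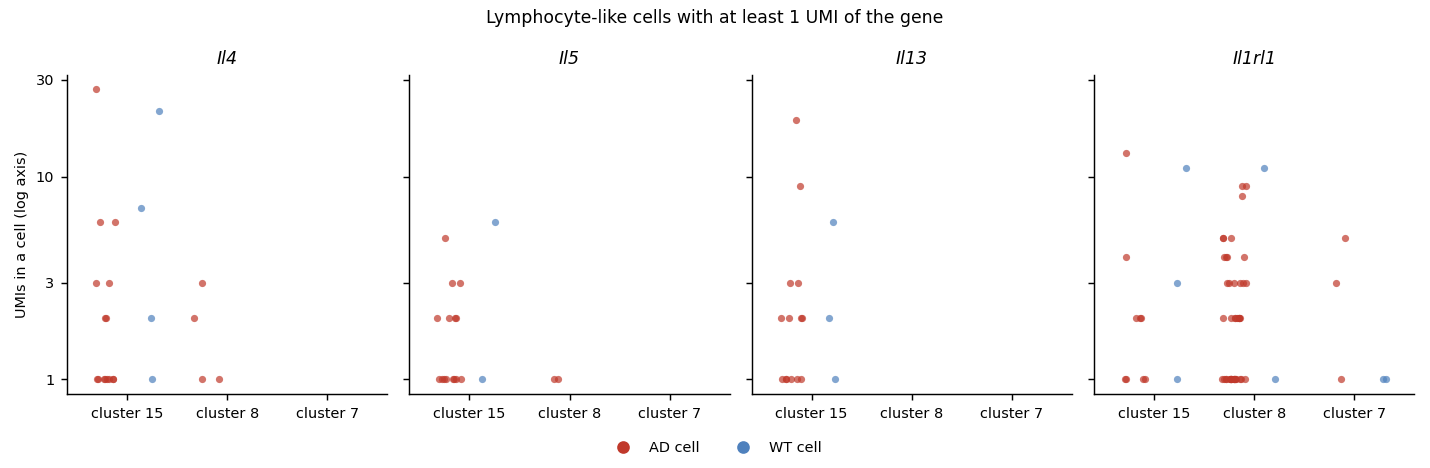
UMIs per cell (log axis) of Il4, Il5, Il13 and Il1rl1 in the lymphocyte-like cells that had at least 1 UMI of the gene, by cluster, AD left of WT, 1 point per cell. All Il13 points lie in cluster 15, while Il1rl1 points lie mainly in cluster 8, in 44 AD and 2 WT cells.

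Cluster 8 held 112 of 148 Il1rl1 UMIs of AD lymphocyte-like cells and 12 of 29 of WT ones. Cluster 7 held 9 in AD and 2 in WT. Cluster 8 made up 214 of 499 AD and 48 of 243 WT lymphocyte-like cells, and it was a mixed cluster. At resolution 2, a lymphocyte-like cluster led by Tnfrsf4 and Foxp3, with Il1rl1 among its leading 10 genes, held 151 AD and 26 WT cells. Another, with Scart1 and Il23r among its leading genes, held 61 AD and 22 WT cells. The part of this cell mix in the Il1rl1 difference was not tested. In cluster 8, Il1rl1 had 112 UMIs in 44 of 214 AD cells (20.6%) and 12 UMIs in 2 of 48 WT cells (4.17%). Of the WT UMIs, 11 came from 1 cell. The level was 225 CPM (185 to 270) in AD and 79.2 CPM (40.9 to 138) in WT, a ratio of 2.84 (1.56 to 5.65). Of 2 members tested there, Il1rl1 was higher and Il4ra was not, against 8.92% of 4350 genes, and 0 were lower, against 5.54%. Without cluster 15, Il1rl1 in lymphocyte-like cells had a log2 ratio of 2.65, and Il5 and Il13 were under the minimum with 2 and 0 UMIs in AD and 0 of each in WT.

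The Il1rl1-positive AD cells of cluster 8 differed from the negative cells in the genes they carried. Foxp3, the factor of regulatory T cells, was found in 18 of 44 (40.9%) positive and 9.41% of 170 negative cells. Gata3 was found in 77.3% of positive and 32.4% of negative cells. Areg, which encodes the repair factor amphiregulin, was found in 63.6% and 26.5%, and Klrg1 in 43.2% and 10.6%. Il23r, the receptor of the type 17 arm, was found in 0 of 44 positive and 27.1% of negative cells. These are shares of cells of 1 library, and positive cells may differ from negative ones in depth.

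Genes around the cytokines were read from 5 lists in the same lymphocyte-like cells, where 7.91% of all genes were higher and 3.46% lower. Among 11 other cytokines and growth factors, 4 were tested, of which 3 were higher and 1 lower. Their median log2 ratio was 2.00. Calca was at 125 CPM in AD and 8.63 CPM in WT (log2 3.76), and Penk, an enkephalin precursor, at 82.5 and 12.3 CPM (log2 2.68). Areg was at 327 CPM in AD and 131 CPM in WT (log2 1.32), where 50.9% of its UMIs came from 1 cell. Ccl1, a chemokine, was at 12.8 CPM in AD and 28.4 CPM in WT, where 91.3% of its UMIs came from 1 cell. In cluster 15 itself Areg was lower in AD, with 601 CPM against 1560 CPM in WT, and 83.1% of those WT UMIs came from 1 cell.

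Of 19 regulators and surface genes, 16 were tested, with a median log2 ratio of 0.51. Among them 3 were higher and 0 lower, against 7.91% and 3.46% of all genes, shares that also apply to the lists that follow. The higher ones were Klrg1 (92.7 CPM in AD, 27.1 in WT), the costimulator Icos (519 and 218) and Rora (1440 and 693). These sums mix clusters in unlike shares: cluster 7 held 231 AD and 189 WT cells, and cluster 8 held 214 and 48. Within clusters, Rora was at 520 CPM in AD and 307 in WT (cluster 7), 2360 and 1830 (cluster 8), and 1660 and 2280 (cluster 15). Klrg1 was at 166 and 59.4 CPM in cluster 8, and 164 and 312 CPM in cluster 15. The part of the cell mix in these differences was not tested. Of 13 partner chains and decoy receptors, 7 were tested and 2 were higher, namely Tnfrsf4, which encodes OX40 (125 CPM in AD, 19.7 in WT), and Il9r (31.5 and 6.16). Of 13 JAK and STAT signalling genes, 12 were tested, and 0 were 2-fold higher or lower (median log2 ratio 0.16). Of 17 genes that IL-4 and IL-13 are known to induce in other cells, 2 were tested in lymphocyte-like cells and both were higher, Clca1 (131 CPM in AD, 16 in WT) and Retnlb (72.3 and 13.6). These are goblet cell products, and B-like cells held them at like levels, with 126 and 28.1 CPM of Clca1 and 103 and 10.5 CPM of Retnlb.

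The alarmin Il33 was read mainly in fibroblasts. Stromal-like cells held 284 of 372 kept-cell UMIs in AD and 75 of 129 in WT. The level was 89.2 CPM (79.1 to 100) in AD and 65.4 CPM (51.5 to 82) in WT, a ratio of 1.36 (1.05 to 1.78), below 2-fold. It was found in 175 of 858 AD cells (20.4%) and 42 of 263 WT cells (16%), and after thinning in 8.74% and 7.23%. By cluster, Il33 was highest in cluster 4, fibroblasts led by Pcolce2, Gdf10 and Pi16, at 167 CPM (147 to 189) in AD and 134 CPM (104 to 171) in WT. In cluster 6, fibroblasts led by Cxcl13 and Adamdec1, it was at 24.8 CPM (16.9 to 35) and 20 CPM (9.15 to 38). The 2 fibroblast clusters were far apart in each library, while the AD and WT intervals overlapped within each.

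Tslp, the alarmin that primes dendritic cells and innate lymphoid cells, was low. Stromal-like cells held 37 UMIs in AD and 14 in WT, at 11.6 CPM (8.18 to 16) and 12.2 CPM (6.68 to 20.5), a ratio of 0.952 (0.503 to 1.91). It did not share the Il33 pattern, with 9.28 CPM (5.07 to 15.6) in AD and 12.4 CPM (4.54 to 27) in WT in cluster 4, and 16.2 CPM (10.1 to 24.8) and 13.3 CPM (4.89 to 29) in cluster 6. These intervals overlap, so no order between the clusters is given. In AD macrophage-like cells Tslp had 13 UMIs in 8 of 186 cells, and in WT 2 UMIs in 1 of 53.

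Fibroblasts also carried receptor chains. Il13ra1 in stromal-like cells was at 46.8 CPM (39.6 to 55) in AD and 26.2 CPM (17.7 to 37.4) in WT, a ratio of 1.79 (1.20 to 2.74), and Il4ra at 30.2 and 28.8 CPM (ratio 1.05, 0.699 to 1.61). In stromal-like cells 0 of 5 tested members were 2-fold higher or lower, against 5.22% and 2.77% of 11523 genes. Their median log2 ratio was 0.05, and that of all genes -0.02. Without the highest cell of each library, Il13ra1 reached a log2 ratio of 1.06.

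In macrophage-like and endothelial-like cells Il33 was lower in the AD library, from few cells. In macrophage-like cells it had 10 UMIs in 2 of 186 AD cells (8 and 2) and 17 UMIs in 3 of 53 WT cells (10, 6 and 1), a ratio of 0.25 (0.102 to 0.579). It was the 1 of 3 members tested there that was lower, against 5.25% of 6474 genes, and 0 were higher, against 9.79%. The lower call rests on the 2 AD and 3 WT cells named, and with no mitochondrial limit macrophage-like cells held 0 UMIs in AD and 16 in WT, under the minimum of 20. In endothelial-like cells it had 3 UMIs in 3 of 86 AD cells and 16 UMIs in 9 of 99 WT cells, a ratio of 0.249 (0.0465 to 0.87), also under the minimum. Of these, lymphatic endothelium held 1 UMI in 7 AD cells and 9 UMIs in 12 WT cells.

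**Figure D4:**
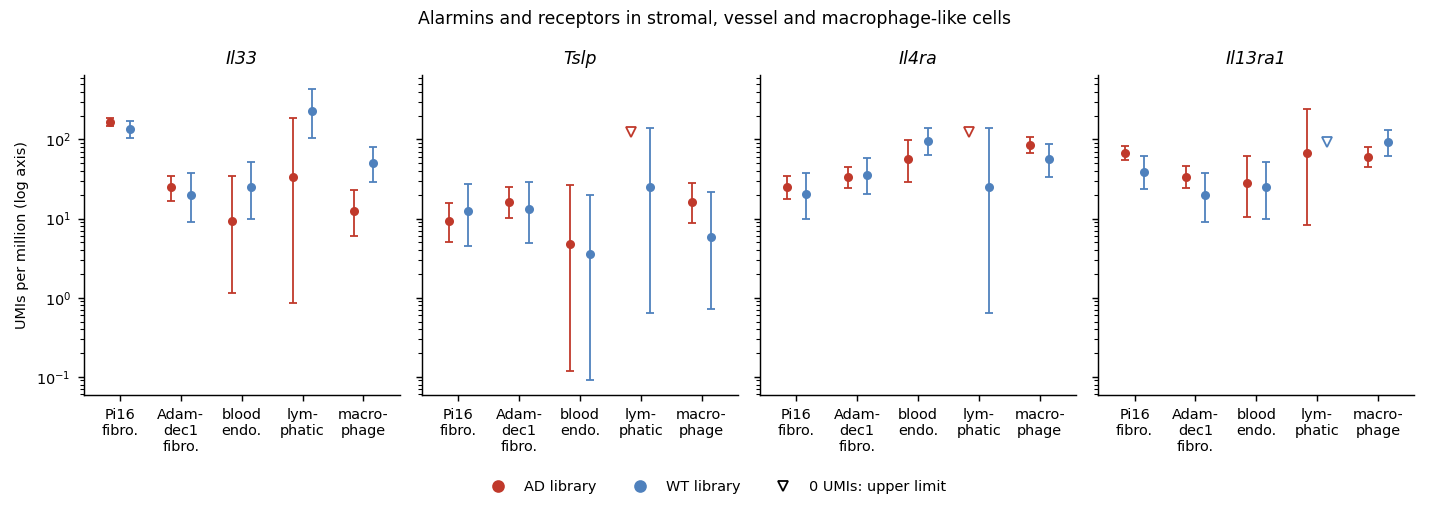
CPM (log axis) of Il33, Tslp, Il4ra and Il13ra1 in Pi16 fibroblasts (cluster 4), Adamdec1 fibroblasts (cluster 6), blood and lymphatic endothelium and macrophage-like cells, AD left of WT, with exact 95% Poisson intervals. Il33 in Pi16 fibroblasts was 167 CPM in AD and 134 CPM in WT, and in macrophage-like cells 12.6 CPM and 50.3 CPM.

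Epithelial-like cells were the main site of Il13ra1, the IL-13 binding chain, with 88.5% of its kept-cell UMIs in AD and 90% in WT. It was at 119 CPM (114 to 124) in AD and 79.1 CPM (73.2 to 85.3) in WT, a ratio of 1.5 (1.38 to 1.64). It was found in 777 of 1552 AD cells (50.1%) and 231 of 558 WT cells (41.4%), and after thinning in 10.1% and 6.95%. In epithelial-like cells 0 of 4 tested members were 2-fold higher or lower, against 3.96% and 5.99% of 14379 genes. The median log2 ratio was 0.13 for the members and -0.04 for all genes.

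By epithelial class, Il13ra1 was at 149 CPM (138 to 160) in AD and 107 CPM (91.7 to 125) in WT colonocyte-like cells. In goblet-like cells it was at 136 CPM (126 to 145) and 114 CPM (99.4 to 130). In crypt-like cells it was at 89.2 CPM (82.2 to 96.7) and 55.6 CPM (48.8 to 63), and in enteroendocrine-like cells at 54.7 CPM (38.3 to 75.8) and 57.1 CPM (39.3 to 80.1). Intervals of colonocyte-like and goblet-like cells overlapped in each library, and both lay above crypt-like cells. Ratios ran over 0.959 in enteroendocrine-like, 1.19 in goblet-like, 1.39 in colonocyte-like and 1.61 in crypt-like cells.

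The Il13ra1 difference grew when barcodes with over 25% mitochondrial UMIs were included, and shrank under a stricter limit. With at most 10% mitochondrial UMIs, the log2 ratio of Il13ra1 in epithelial-like cells was 0.27. It was 0.59 with the 25% limit and 1.04 with no limit. Over all barcodes, epithelial-like cells had 105 CPM (101 to 109) in AD and 51 CPM (48.1 to 54.1) in WT, a ratio of 2.06, and Il13ra1 was the 1 of 5 tested members that was higher, against 6.41% of genes, while 0 were lower, against 4.83%. Among colonocyte-like barcodes the levels were 130 CPM (122 to 138) in AD and 50.2 CPM (45.6 to 55) in WT. A cluster of 18 AD and 664 WT colonocyte-like barcodes had 34.6 CPM (7.14 to 101) and 26.1 CPM (20.6 to 32.7). The other colonocyte-like cluster, with 654 AD and 462 WT barcodes, had 131 CPM (123 to 139) and 62 CPM (55.9 to 68.7). The share of barcodes over the limit moved with the library, and its part in this difference was not tested.

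**Figure D5:**
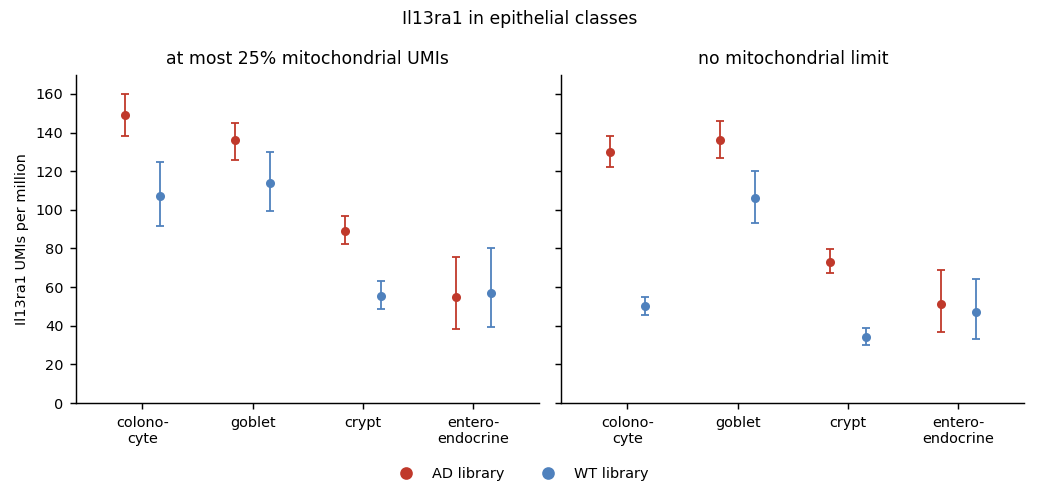
Il13ra1 CPM in 4 epithelial classes, AD left of WT, with exact 95% Poisson intervals, for kept cells (left panel) and for all barcodes (right panel). Colonocyte-like cells stood at 149 CPM in AD and 107 CPM in WT with the limit, and at 130 CPM and 50.2 CPM without it.

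Il4ra, the chain that pairs with Il13ra1, was at 9.53 CPM (8.16 to 11.1) in AD and 10.7 CPM (8.6 to 13.1) in WT epithelial-like cells, a ratio of 0.893 (0.689 to 1.16). In AD its order over these classes was led by B-like cells (142 CPM) and lymphocyte-like cells, whose intervals overlapped, followed by macrophage-like (85.6 CPM), endothelial-like (49.7 CPM), stromal-like and epithelial-like cells. In WT, B-like cells were at 125 CPM, endothelial-like cells at 87.3 CPM (58 to 126) and macrophage-like cells at 56.2 CPM (33.8 to 87.8), so endothelial-like cells stood above macrophage-like cells there. Intervals of these 2 classes overlapped in each library, and in WT that of endothelial-like cells also overlapped those of B-like and lymphocyte-like cells. In goblet-like cells the known IL-13 response genes Clca1 and Muc5ac, a chloride channel regulator and a mucin, were higher in AD, at 11500 CPM against 5630 CPM in WT and 21.3 CPM against 5.67 CPM in WT. They were 2 of 6 tested genes of that list in goblet-like cells, against 4.01% of 10880 genes, and 0 of 6 were lower, against 4.64%. Retnlb, a goblet antimicrobial, was at 9750 CPM in AD and 6470 CPM in WT (log2 0.59). For the list of genes induced by IL-4 and IL-13, the median log2 ratio was 0.60 in goblet-like cells. It was 2.66 in B-like, 1.74 in plasma-like, 0.83 in stromal-like and 0.22 in macrophage-like cells. A higher median was thus not particular to goblet-like cells.

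Crypt-like cells had Il33 at 6.48 CPM (4.69 to 8.73) in AD and 2.73 CPM (1.41 to 4.77) in WT, a ratio of 2.37 (1.23 to 4.94). It was the 1 of 3 tested members higher there, against 4.13% of 11794 genes, and 0 were lower, against 4.40%. The call rests on few cells. In cluster 1, which held most crypt-like cells, Il33 had 41 UMIs in 23 of 567 AD cells. In WT cells of that cluster it had 12 UMIs in 10 of 230. Crypt-like cells also held fibroblast marker UMIs, 1513 in AD and 429 in WT, and Il33 per 1000 of them was 28.4 in AD and 28 in WT. In stromal-like cells that ratio was 1.94 in AD and 1.41 in WT.

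Il4 was also read outside lymphocytes. Stromal-like cells had 24 UMIs in 22 of 858 AD cells and 9 UMIs in 5 of 263 WT cells, and epithelial-like cells 25 UMIs in 24 of 1552 and 16 in 11 of 558. These were mostly single UMIs, and B-like cells had 1 UMI in each library. Per Il13 UMI the counts differed between classes, with 64 Il4 to 48 Il13 UMIs in AD lymphocyte-like cells and 25 to 1 in AD epithelial-like cells. After thinning, 4 of 744 AD stromal-like cells (0.538%, 0.147 to 1.37) and 3 of 235 WT cells (1.28%, 0.264 to 3.69) had a UMI, and no difference is read from these overlapping shares.

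Il25 and its receptor chain Il17rb were sparse, and the 25% limit removed most of their UMIs: barcodes over the limit held 6 of 7 Il25 UMIs in AD and 9 of 11 in WT. Without the limit, 32 AD and 141 WT barcodes were tuft-like. Il25 had 6 UMIs in 3 of 32 AD and 9 UMIs in 8 of 141 WT tuft-like barcodes, at 102 CPM (37.6 to 223) and 20.1 CPM (9.17 to 38.1). One AD barcode held 4 of the 6 UMIs, and the sum lay under the minimum of 20. Il17rb had 1 UMI in AD and 10 in WT, at 17.1 CPM (0.432 to 95.1) and 22.3 CPM (10.7 to 41).

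Tuft-like barcodes also held the IL-13 receptor chains. Il13ra1 had 6 UMIs in 4 AD and 74 UMIs in 49 WT barcodes, at 102 CPM (37.6 to 223) and 165 CPM (130 to 207). Il4ra had 0 UMIs in 32 AD barcodes, which allows a share with a UMI of up to 9.38% (3 counts), and 23 UMIs in 20 of 141 WT barcodes (14.2%). By the 2-fold rule Il4ra was the 1 of 2 tested members lower there, against 10.6% of 3064 genes, and 0 were higher, against 11.4%. That call rests on the count added to 0: the interval of the ratio, 0 to 1.33, includes 1, and a floor of 3 AD counts would stand at 51.2 CPM, against 51.3 CPM in WT. Median depths were 1467.5 UMIs in AD and 2474 in WT.

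Across 22 clusters of at least 20 cells, the genes whose levels ran most like a member's were listed as a description, with Pearson's r of log2(CPM + 1) over both libraries summed. Clusters share their libraries and differ in depth. For Il13 they were Calca (0.94), Il17f (0.87) and Vmn2r100 (0.82). For Il1rl1 they were Tnfsf8 (0.94), Ubash3a (0.93) and Ccr4 (0.91). For Tslp they were Tnfsf13b and Masp1 (0.89 each) and Exoc3l4 (0.87). For Il33 they included Tek (0.80) and Gm16046 (0.78). The highest were, for Il13ra1, Igf2bp2 and Cenpv (0.83 each) and Nos1ap (0.82), for Il4ra Pex14 (0.81), Zfp182 and Zcchc7 (0.78 each), and for Il4 Trp53rka (0.79), Coro2b (0.77) and A230072C01Rik (0.75).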

How the data were processed

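The deposited files hold raw UMI counts per gene and barcode for each library, as whole numbers. The submitters' processing notes list the mm10 build and, as tools, Seurat 3.0.2, Cell Ranger 3.0.1 and STAR. Of 33083 gene identifiers, 31350 matched an mm10 name table and 1733 did not, so the annotation behind the counts was not settled. Promoter sequences and gene positions are RefSeq's, on GRCm38.p6.

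Kept cells had mitochondrial UMIs of no more than 25%, with minimums of 200 genes and 500 UMIs. Scrublet (assumed rate 0.06) called 4 doublets in each library, 0.0853% in AD and 0.258% in WT, too few to count as effective removal. Both libraries were clustered together in scanpy 1.11.5 (leidenalg 0.10.2, igraph 0.11.9, pandas 2.3.3, scipy 1.17.1, Python 3.11.15) with 1997 variable genes, members left out, 30 principal components, 15 neighbours and resolution 1. Clusters were named from markers of 23 classes, and 2 T cell receptor symbols of those lists were not found. UMIs were summed per library and class. Sums carry exact Poisson, shares Clopper-Pearson and ratios conditional exact intervals at 95%. Where a share was 0, its limit is 3 counts of the cells. Log2 ratios had 0.5 counts added, and calls use them. Thinned shares are those of the first of 20 draws of 1000 UMIs per cell. List genes were named where 20 or more UMIs and a 2-fold ratio were reached, up to 4 per list and class. Other lineage genes were named after their values were seen. No batch is given in the labels, and library and genotype are the same split. The summing and interval steps were checked on simulated data. The members, gene lists and markers were chosen with earlier results of these data known. Tuft-deficient, organoid and succinate arms were not analysed here.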

Additional observations from a re-analysis of the deposited data

Results flagged for a closer look

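Il33 had count ratios on opposite sides of 1 in different cell classes, which drew attention to it. The ratio of AD over WT was 1.36 in stromal-like cells, 0.249 in endothelial-like cells and 0.25 in macrophage-like cells. The difference between classes was not tested, since each genotype had 1 library. The macrophage-like value rests on 2 AD and 3 WT cells, and the endothelial-like value on 3 AD and 9 WT cells. With no mitochondrial limit, macrophage-like cells held 0 Il33 UMIs in AD and 16 in WT.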

How the results depend on the processing

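No paired analysis was possible because each genotype had 1 library. No member call in lymphocyte-like cells was lost under any mitochondrial limit, scaling, added count, resolution or doublet setting, and Il5, Il13 and Il1rl1 stayed at 2-fold or more. Il5 did so only just, with a log2 ratio of 1.00 at no more than 10% mitochondrial UMIs (1.44 in the main setting). With at least 50 UMIs required, Il5 was not tested. Shares of all genes higher and lower under the same setting follow each count. Counting any gene with a UMI gave 6 members called in lymphocyte-like cells (27.5% and 12.8%), 5 in all barcodes (16.2% and 8.91%), 3 in kept cells (8.8% and 11.1%), 2 in stromal-like (10.7% and 11.3%) and 3 in epithelial-like cells (11.3% and 14.3%). At 1.5-fold the counts were 6 in all barcodes (19.5% and 10.2%), 2 in kept cells (9.57% and 15.3%), 1 in stromal-like (11.6% and 10.3%) and 1 in epithelial-like cells (9.31% and 13.9%). In kept cells 2 members were called with no mitochondrial limit (7.97% and 4.24%), at 50% (6.52% and 4.84%), without mitochondrial, ribosomal, immunoglobulin and haemoglobin genes (5.18% and 5%) and with the median gene set to 0 (5.87% and 4.11%), 3 without the highest cell of each library (5.69% and 4.69%), and 0 with 1 count added (4.17% and 5.9%). In stromal-like cells 1 was called without the highest cell (7.12% and 1.78%). In epithelial-like cells 1 was called with no mitochondrial limit (6.41% and 4.83%) and 1 with doublets kept (4.27% and 5.89%). With doublets kept, the epithelial-like class took in a cluster of 103 AD and 23 WT cells led by Cxcl13 and Col6a5, with Adamdec1 among its leading genes. These 3 genes were among the leading genes of fibroblast cluster 6 in the main setting, so that call is not one of epithelial cells alone. With at most 10% mitochondrial UMIs, Il13 in kept cells turned round (-0.03), the uncalled Il5 (-0.41), Il33 (-0.45) and Tslp (-0.57) also changed sign, and Il4 was called lower (-1.13). Leaving out cluster 15 from lymphocyte-like cells, a setting chosen after seeing the data, left 1 member called (7.72% and 3.35%), with too few UMIs for a ratio of Il5 or Il13. The median of all genes lay at 0.14 in all barcodes and -0.15 in kept cells, which is the shift that centring removes. Of 16 shares of cells, 8 lay outside the thinned interval without thinning. The causes of these moves were not tested. Few WT lymphocytes limit every cytokine value: single WT cells held 6 of 9 Il13, 6 of 7 Il5 and 21 of 31 Il4 UMIs.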

Other observations

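Il5ra, a receptor chain of IL-5, was read mainly in plasma-like cells. Il5ra had 487 UMIs in AD and 35 in WT kept cells, of which plasma-like cells (959 AD and 50 WT cells) held 444 and 24. Its level within plasma-like cells was 60.3 CPM in AD and 53.2 CPM in WT. Csf2rb, the chain shared by the IL-5, IL-3 and GM-CSF receptors, was at 107 CPM in AD and 31 CPM in WT plasma-like cells (log2 1.74), from 791 and 14 UMIs. The median log2 ratio of the 6 tested partner chains and decoy receptors in plasma-like cells was 0.22, and that of all genes 0.02.

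Of 8 tested genes that IL-4 and IL-13 are known to induce, 2 were higher and 2 lower in AD macrophage-like cells. Over all 6474 genes there, 9.79% were higher and 5.25% lower. The median log2 ratio was 0.22 for the list and 0.04 for all genes. The 2 lower ones were the chemokine genes Ccl17 and Ccl22. At resolution 2, Ccl17 led a dendritic-like cluster of 54 AD and 23 WT cells. Ccl17 had 20 UMIs in 6 of 186 AD cells and 250 UMIs in 4 of 53 WT cells, of which 76.8% came from 1 WT cell. Ccl22 had 13 UMIs in AD and 43 in WT, and all of the WT UMIs came from 1 cell.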
